A study of Mus musculus with 2 samples.

Results

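The cells described here are secretory progenitors of the mouse ileum, named for *Spdef* and the Notch ligand gene *Dll1*. A cell was counted as one if it held at least 1 unique molecular identifier (UMI, a tag that counts each captured mRNA molecule once) of 4 or more of the 8 genes *Creb3l1*, *Spdef*, *Dll1*, *Cbfa2t3*, *Rap1gap*, *Ern2*, *Pdia5* and *Slc12a8*. In addition, the mucus genes *Zg16*, *Fcgbp*, *Clca1*, *Muc2* and *Tff3* had to take less than 1%, and the lysozyme gene *Lyz1* less than 0.5%, of its UMIs. The rule found 289 of 5408 cells, of which 182 were WT and 107 *Tipe0*-/-. The cells were thus chosen by their measured UMIs of these genes, so every difference from other cells is a description, with no test. The study made single-cell (sc)-RNASeq libraries of ileal epithelium from C57BL/6 mice aged 8 weeks, 1 from wild-type (WT) and 1 from TNFAIP8-/- animals, which lack the gene *Tnfaip8* that encodes TIPE0 and are called *Tipe0*-/-. No treatment of the animals is given in the labels. Cells of 3 mice were pooled for each library, so the mice cannot be told apart, genotype and library are the same thing, and no test between genotypes was possible. Ranges in brackets are exact 95% intervals, Poisson for UMI sums, Clopper-Pearson for shares of cells and binomial for ratios, and they cover counting error only.

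New cells of the ileal epithelium arise in crypts, where Notch signalling between neighbours sorts them into absorptive and secretory fates. A cell with low Notch activity keeps the transcription factor ATOH1, presents the ligands DLL1 and DLL4 to its neighbours and enters the secretory lineage, whereas HES1, a repressor induced by Notch, keeps *Atoh1* off in absorptive precursors. SPDEF acts after ATOH1 in the maturation of goblet and Paneth cells, and CREB3L1 is a transcription factor held in the membrane of the endoplasmic reticulum (ER) that takes part in building secretory capacity.

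The promoters of 4 genes of the rule are shown, picked as windows that held motifs of the factors named above. They are RefSeq promoters of GRCm38.p6, from 250 bases before to 50 bases after the annotated start, printed on the strand of the gene, with each match in capitals. The motifs searched on both strands were CAGCTG and CAGATG, which are forms of the E-box that basic helix-loop-helix factors such as ATOH1 can bind, and TGGGAA, the core bound by RBPJ, the DNA-binding partner of Notch. The *Spdef* promoter lies at chr17:27728902-27729201, that of the second listed start of *Dll1* at chr17:15376883-15377182, that of *Cbfa2t3* at chr8:122699060-122699359 and that of *Pdia5* at chr16:35490824-35491123, all on the minus strand.
Spdef: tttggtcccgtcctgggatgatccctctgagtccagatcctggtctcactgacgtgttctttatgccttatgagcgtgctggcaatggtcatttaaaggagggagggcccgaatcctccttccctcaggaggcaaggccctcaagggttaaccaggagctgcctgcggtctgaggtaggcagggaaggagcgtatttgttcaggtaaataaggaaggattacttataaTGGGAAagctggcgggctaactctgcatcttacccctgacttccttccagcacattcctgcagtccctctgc
Dll1: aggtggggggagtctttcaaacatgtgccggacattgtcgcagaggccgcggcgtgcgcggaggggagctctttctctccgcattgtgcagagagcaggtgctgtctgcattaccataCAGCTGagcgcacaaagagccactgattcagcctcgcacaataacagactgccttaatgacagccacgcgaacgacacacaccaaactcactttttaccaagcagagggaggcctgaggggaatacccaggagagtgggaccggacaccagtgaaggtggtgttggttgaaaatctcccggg
Cbfa2t3: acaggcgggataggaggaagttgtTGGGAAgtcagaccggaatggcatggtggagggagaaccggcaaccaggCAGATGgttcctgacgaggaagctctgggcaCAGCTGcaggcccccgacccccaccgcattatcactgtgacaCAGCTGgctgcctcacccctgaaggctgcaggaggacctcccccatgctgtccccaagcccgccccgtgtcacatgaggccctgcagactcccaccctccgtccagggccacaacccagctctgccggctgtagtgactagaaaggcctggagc
Pdia5: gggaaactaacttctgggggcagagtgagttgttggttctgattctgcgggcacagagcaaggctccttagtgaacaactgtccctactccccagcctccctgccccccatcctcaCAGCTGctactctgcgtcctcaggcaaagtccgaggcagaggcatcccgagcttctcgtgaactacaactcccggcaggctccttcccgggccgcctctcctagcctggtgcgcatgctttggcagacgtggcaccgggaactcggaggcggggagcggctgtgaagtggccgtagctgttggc
The *Spdef* window held TGGGAA at 21 bases before the start and neither E-box. The *Dll1* window held CAGCTG at 131 bases before the start. In *Cbfa2t3*, CAGCTG was found at 145 and at 103 bases, CAGATG at 176 bases and TGGGAA at 225 bases before the start. *Pdia5* had CAGCTG at 133 bases before the start. Of 14 genes searched, 11 had promoters in the table, 22 in all, and 11 of the 22 held CAGCTG, 4 CAGATG and 7 TGGGAA. Of the 22, 7 are windows of *Rap1gap*, some of which overlap, and 5 of these 7 and 2 of 3 *Slc12a8* windows, not shown, held a motif. The other *Dll1* window and the other *Cbfa2t3* window held none. Among all 32851 promoters of the table, 16.3% held CAGCTG, 17.2% CAGATG and 25.6% TGGGAA. A match is a run of letters, and no binding was measured.

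The progenitors were deeply sequenced cells. They had a median of 20376.5 UMIs and 4276.5 genes among WT cells and of 23835 UMIs and 4869 genes among *Tipe0*-/- cells, against medians of 7290.5 and 6892 UMIs in all other cells. In sum they held 3811529 and 2679433 UMIs. Mitochondrial transcripts took 4.21% of their UMIs in WT and 5.63% in *Tipe0*-/- cells, and 6.85% and 8.92% in other cells. A rule that asks for UMIs of several low genes finds more cells where more UMIs were counted. From 3000 to below 6000 UMIs, 4 of 1309 WT cells and 3 of 831 *Tipe0*-/- cells met it. At 24000 UMIs or more, 59 of 302 WT cells (19.5%) and 51 of 279 *Tipe0*-/- cells (18.3%) did. When each cell was thinned to 3000 UMIs, 10 WT and 3 *Tipe0*-/- cells met the rule.

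**Figure D1:**
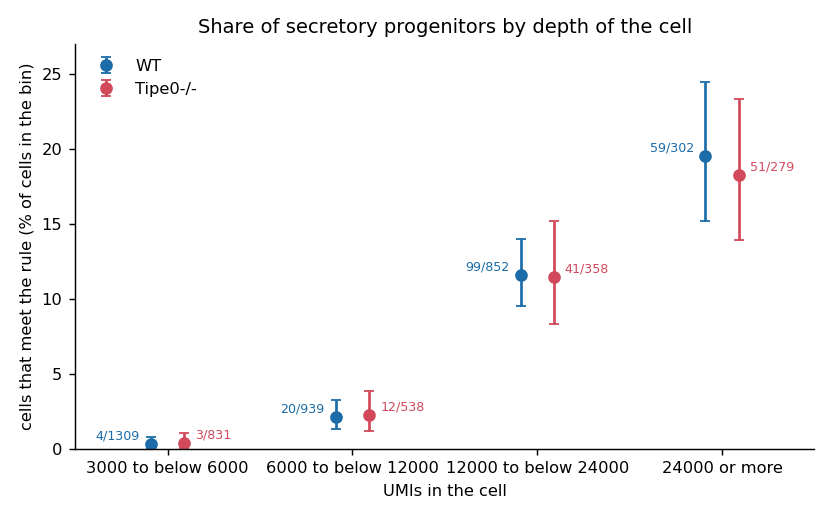
Share of cells that met the rule (y axis, % of the cells in the bin) by the UMIs of the cell (x axis) in the WT and the Tipe0-/- library. Points are shares, bars are 95% Clopper-Pearson intervals, and the fractions are cells that met the rule over cells in the bin; the share was below 1% in the shallowest bin and 19.5% and 18.3% in the deepest, and the intervals of the libraries overlapped in all 4 bins.

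The share of progenitors was 5.35% (4.62 to 6.16%) for WT and 5.33% (4.39 to 6.41%) for *Tipe0*-/- cells. The difference, *Tipe0*-/- minus WT, was -0.0158 percentage points (-1.23 to 1.27). Among cells of at least 10000 UMIs thinned to 10000, the shares were 5.62% and 4.66%, a difference of -0.959 percentage points (-2.82 to 1.11). With 1 library per genotype, a difference in share between genotypes was not tested. Of the 797 cells with 4 or more of the 8 genes, 430 fell outside the rule through mucus genes and 78 through *Lyz1*. The highest mucus share inside was 0.9996% and the lowest outside 1.0001% of UMIs, and for *Lyz1* these were 0.487% and 0.506%. Within the mucus and *Lyz1* limits, 116 cells had exactly 4 of the genes and 116 had exactly 3. The libraries shared 9 barcodes, none of them in a progenitor.

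Markers of other cell types were checked next, and limits on defensin, tuft and enteroendocrine transcripts set 79 of the 289 progenitors apart. UMIs of 4 or more of the epithelial markers *Epcam*, *Cdh1*, *Krt8*, *Krt18* and *Vil1* were found in 286 of 289, and none had 4 or more of 8 lymphocyte markers, whose summed level was 15.2 CPM (UMIs of a gene per 1000000 UMIs of the same cells) in WT and 4.11 CPM in *Tipe0*-/- progenitors. *Defa24* and 7 other alpha-defensin genes, which encode antimicrobial peptides of Paneth cells, took 1% or more of the UMIs in 34 of 182 WT and 7 of 107 *Tipe0*-/- progenitors, with a highest share of 42.9% and 40.0%. These cells held 91.2% and 93.2% of the *Defa24* UMIs of the set. At least 4 of 12 tuft cell markers were found in 22 WT and 13 *Tipe0*-/- progenitors, which held 98 of 102 and 98 of 98 *Dclk1* UMIs of the set. At least 4 of 12 enteroendocrine markers were found in 2 WT and 6 *Tipe0*-/- progenitors. Lower limits would take in more cells, since 4 or more of 6 Paneth markers were found in 166 progenitors. At least 4 of 5 stem markers were found in 64 and at least 4 of 7 enterocyte markers in 17. Nearly all progenitors, 282 of 289, had 4 or more of 7 goblet markers. The 210 cells outside the 3 limits, 127 WT and 83 *Tipe0*-/-, had a median of 20637 UMIs, against 23591 in the 79, and still held *Defa24* at 1540 and 1091 CPM and 47 of 113 *Chgb* UMIs. The level of *Atoh1* was 55.4 CPM in the 210 and 52.1 CPM in the 79. The levels of *Dll1* were 39.9 and 23.8 CPM and those of *Mcm2*, which encodes a subunit of the replicative helicase, 81.7 and 54.1 CPM. Whether cells joined in a droplet gave the mixed profiles was not tested.

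The genes of the rule are given as a description of what was selected. *Creb3l1* was found in 164 of 182 WT and 90 of 107 *Tipe0*-/- progenitors, at 101 CPM (91.4 to 112) and 70.2 CPM (60.5 to 80.9). *Spdef* was found in 134 WT and 48 *Tipe0*-/- progenitors, at 61.7 CPM (54.0 to 70.1) and 27.6 CPM (21.7 to 34.7). *Dll1* was found in 71 WT and 66 *Tipe0*-/- progenitors, at 30.4 CPM (25.2 to 36.5) and 41.4 CPM (34.1 to 49.9). As shares of progenitors, *Spdef* was found in 73.6% of WT and 44.9% of *Tipe0*-/- cells, and *Dll1* in 39.0% and 61.7%. Neither gene was in every progenitor, and the 8 genes together took 0.0390% of the UMIs of progenitors and 0.0483% of those of other cells with mucus genes at 1% or more (the goblet class). *Cbfa2t3*, a transcriptional corepressor, had 40.7 and 39.9 CPM, *Rap1gap*, an inhibitor of RAP1 signalling, 63.8 and 49.3 CPM, and *Ern2*, the ER stress sensor of mucus cells, 41.2 and 32.1 CPM in WT and *Tipe0*-/- progenitors. *Pdia5*, a protein disulfide isomerase, had 40.9 and 30.2 CPM, and *Slc12a8*, a solute transporter, 48.3 and 44.4 CPM. Mucus genes took a median of 0.415% of the UMIs of a WT and 0.503% of a *Tipe0*-/- progenitor. *Muc2*, the gel-forming mucin, still had 868 and 844 CPM, and *Tff3*, a trefoil peptide, 2948 and 3439 CPM.

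Against all other cells, the median ratios of DNA replication genes and of secretory transcription factor genes lay above that of all genes, though no gene of either list, those of the rule aside, reached a ratio of 1 in both libraries. Levels were compared as log2 ratios of CPM with 0.5 added to each UMI sum. Over the 8276 genes with at least 50 UMIs in progenitors the median ratio was 0.29, at 0.33 for WT and 0.22 for *Tipe0*-/- cells, and ratios are read against it. This minimum favours genes that are high in progenitors, and 66.2% of the genes lay above and 18.6% below 0 in both libraries, so counts of genes above 0 are read against these shares. A ratio of at least 1 in both libraries was reached by 29 genes (0.35% of those tested), 5 of them genes of the rule, and a ratio of at most -1 in both by 160 (1.93%). The counts depend on scaling, with 5 higher and 256 lower by the median ratio over genes and 6 higher with totals that left out mitochondrial and the 20 most abundant genes. Of 11 secretory transcription factor genes outside the rule, 10 lay above 0 in both libraries and 1, *Klf4*, below, with a median of 0.58.

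*Atoh1*, which starts the secretory lineage (chr6:64729125-64731245, plus strand, GRCm38), had 52.7 CPM (45.7 to 60.5) in WT and 56.7 CPM (48.1 to 66.5) in *Tipe0*-/- progenitors, against 22.9 and 36.1 CPM in other cells, a pooled ratio of 0.96. A UMI of it was found in 60.6% of progenitors (54.7 to 66.2%). After thinning to 3000 UMIs, one was found in 17.3% of progenitors. It was found in 0 of 278 other cells with *Apoa1*, *Apoa4* and *Apoc3* at 1% or more of UMIs (the enterocyte class). With 3 cells as the floor, this allows detection in up to 1.08% of that class and does not limit the share that expresses the gene. Cells past the *Lyz1*, mucus, tuft or enteroendocrine limits had been taken out of the enterocyte class. Progenitors were not cleared of cells with tuft or enteroendocrine markers. Before thinning the medians were 21110 and 5025 UMIs. *Foxa3*, a goblet-associated forkhead factor, had 60.9 and 49.6 CPM against 29.4 and 33.1 CPM, and *Foxa2* 11.0 and 18.3 CPM against 4.72 and 9.57 CPM, in WT and *Tipe0*-/- cells. *Bhlha15*, a factor of professional secretory cells, stood at 12.9 CPM in WT progenitors and 5.89 CPM in other WT cells, and at 7.09 and 6.93 CPM in the *Tipe0*-/- library. *Gfi1*, which acts below ATOH1, had only 25 and 11 UMIs. *Etv5*, an ETS family factor, had a ratio of 2.50 with 39 and 19 UMIs, at 10.2 and 7.09 CPM against 1.19 and 2.21 CPM; it lies outside the rule for naming genes and was chosen after its values were seen.

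By that rule, which in this comparison leaves out the genes that selected the cells, the highest ratios among genes with at least 50 CPM were those of *Ccl9*, a chemokine, at 1.26 and *Rab15*, a small GTPase of endosomes, at 1.19. *Ccl9* had 93.7 CPM (84.2 to 104) in WT and 55.2 CPM (46.7 to 64.9) in *Tipe0*-/- progenitors, and its level in the defensin-rich progenitors and in the 210 progenitors outside the 3 marker limits was 217 and 69.7 CPM in WT but 47.5 and 62.6 CPM in *Tipe0*-/- cells. *Rab15* had 85.5 and 66.1 CPM against 34.5 and 33.1 CPM in other cells. Replication genes among the 20 highest included *Mcm2* at 1.02, *Tk1*, thymidine kinase, at 0.99 and *Fen1*, a flap endonuclease, at 0.96. *Cdt1*, a licensing factor, had 59.8 and 67.2 CPM against 28.2 and 36.9 CPM. Also among the 20 highest were *Tcof1* (1.03) and *Nhp2* (0.98), which serve ribosome production, and *Srm* (0.99), the spermidine synthase. *Galnt12*, which starts the O-glycosylation of mucins, stood at 0.93, with 71.4 and 67.2 CPM against 34.8 and 39.5 CPM. *Ifitm3*, an interferon-induced membrane protein, had a ratio of 1.02 at very unequal levels, 1222 CPM in WT and 300 CPM in *Tipe0*-/- progenitors.

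Of the 8 lowest genes named outside the rule, several are genes of mature absorptive cells. *Apoa1*, an apolipoprotein, stood at -5.40, with 26.8 and 17.5 CPM in progenitors against 962 and 994 CPM in other cells. *Anpep*, the brush border aminopeptidase, was at -4.49, *Sepp1*, a selenoprotein, at -3.73, *Spink1*, a protease inhibitor, at -3.64 and *Fabp6*, the ileal bile acid binding protein, at -3.38. *Krt20*, a keratin of differentiated cells, had a ratio of -2.96 and the Paneth defensin *Defa21* one of -2.61. Among the genes the rule limits, *Zg16* was at -4.52 and *Lyz1* at -2.92. All 10 of 18 listed enterocyte genes that passed the minimum lay below 0 in both libraries and 9 were at or below -1 (background 1.93%), with a median of -2.73. *Cdkn1a*, which arrests the cell cycle, had 35.4 and 30.2 CPM against 128 and 97.9 CPM, a ratio of -1.81. It was the 1 of 7 cell cycle inhibitor genes past -1 in both libraries, and the median of the 7 was -0.10, with *Cdkn2c* at 0.63. Of 16 Paneth genes other than *Lyz1*, 14 lay below 0 in both libraries, beside 18.6% of all genes, with a median of -1.37. At or below -1 in both were 11 of them (background 1.93%), and the rule itself limits *Lyz1*.

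All 20 S phase genes and all 20 mitosis genes lay above 0 in both libraries, as did 66.2% of all genes. Their medians were 0.85 and 0.71, beside the median of 0.29 for all genes. None of these S phase and mitosis genes reached 1 in both libraries. *Top2a*, the topoisomerase of dividing cells, had 385 and 346 CPM against 202 and 238 CPM. Of 7 cycling markers, 4 or more were found in 245 of 289 progenitors. *Mki67* was found in 219 of 289, and after thinning in 25.3% of progenitors against 0.719% of the enterocyte class. S phase genes took 0.144% of the summed UMIs of progenitors, 0.148% in other cells with 2 or more *Lgr5* UMIs (the stem class) and 0.0681% in the goblet class. Against other cells of at least 10000 UMIs, the medians of the S phase and mitosis genes were 0.83 and 0.67. Crypt base stem cell genes had a median of 0.57, with 13 of 14 above 0 in both libraries, beside 66.2% of all genes. *Lgr5* itself, the stem cell receptor, had 25.7 and 34.3 CPM, and 48 progenitors had 2 or more UMIs of it. *Lgr5* and *Mki67* lie outside the rule for naming genes and were chosen after their values were seen.

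**Figure D2:**
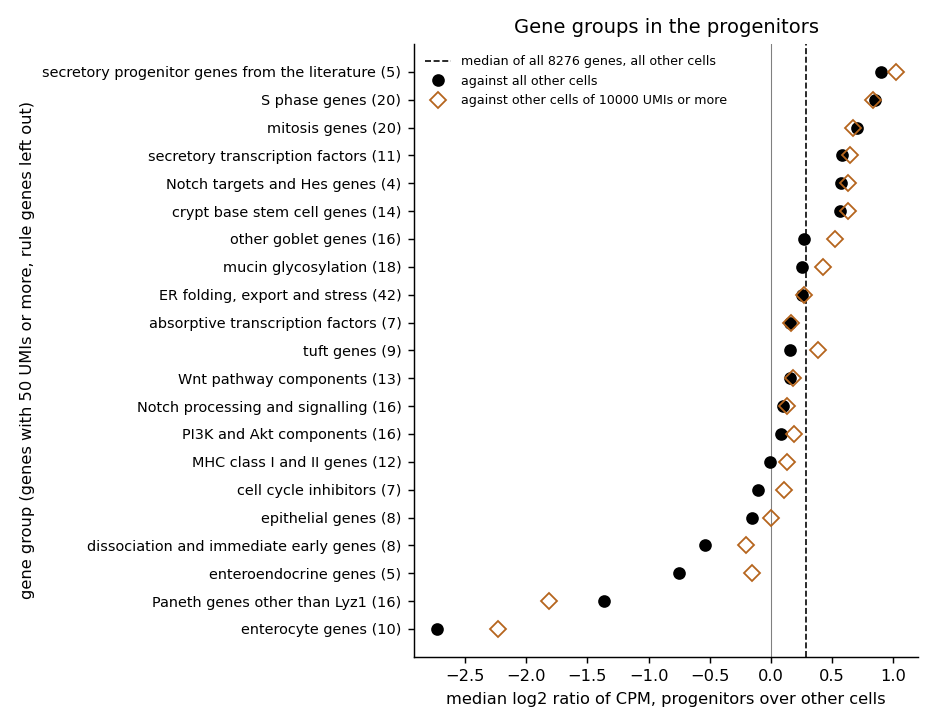
Median log2 ratio of CPM, progenitors over other cells (x axis), for each listed gene group with at least 4 genes that passed the minimum of 50 UMIs (y axis, number of genes in brackets, genes of the rule left out). Filled circles are ratios against all other cells, open diamonds against other cells of at least 10000 UMIs, and the dashed line is the median of all genes, 0.29; replication, mitosis and secretory factor genes lie to its right in both comparisons, and enterocyte genes lie farthest to its left, at -2.73.

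Genes of secretory work stayed close to the median of all genes. Of 42 genes of ER folding, export and stress outside the rule, 28 lay above and 8 below 0 in both libraries, with a median of 0.25. *Agr2*, which folds mucins, had 1845 CPM in WT and 1018 CPM in *Tipe0*-/- progenitors, and 6868 and 4289 CPM in the goblet class. Of 18 genes of mucin glycosylation, 12 lay above and 4 below 0, with a median of 0.26. *St3gal4*, a sialyltransferase, was at -1.44. *Spink4*, a goblet and Paneth cell inhibitor of proteases, had 6518 and 5955 CPM in progenitors, and 51.8% of these UMIs lay in the 41 defensin-rich cells.

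Ligand, receptor and target genes of the Notch pathway are given in that order. Among ligands outside the rule, *Dll4* had 13.1 CPM (9.74 to 17.3) in WT and 14.9 CPM (10.7 to 20.3) in *Tipe0*-/- progenitors against 5.33 and 7.02 CPM in other cells, a ratio of 1.22. After thinning, however, a UMI of *Dll4* was found in 2.42% of progenitors and 3.96% of the enterocyte class, so no order is read from its level. *Jag1* had 19 and 16 UMIs. Of the receptors, *Notch1* had 26.8 and 33.6 CPM against 15.7 and 22.7 CPM, *Notch2* 13.1 and 12.3 CPM and *Notch4* 19 and 17 UMIs. *Lfng*, which modifies NOTCH receptors, was the 1 gene of 16 in the processing and signalling list past a ratio of 1 in both libraries, with 31 and 36 UMIs and a ratio of 1.29; it was chosen after its values were seen. The median of that list was 0.10. The 4 target genes that passed the minimum were above 0 in both libraries, as were 66.2% of all genes, and their median was 0.57. *Hes1* (chr16:30064384-30067796, plus strand) had 73.7 CPM (65.3 to 82.9) and 116 CPM (104 to 130), against 49.7 and 107 CPM in other cells. Its ratio was thus 0.57 in WT but 0.13 in *Tipe0*-/- cells, beside medians of 0.33 and 0.22 for all genes. *Nrarp*, a feedback inhibitor of Notch, had 42.5 and 66.4 CPM against 24.3 and 42.1 CPM. *Hes6*, which opposes HES1, had 77.7 and 78.7 CPM against 43.9 and 44.9 CPM. UMIs of both *Atoh1* and *Hes1* were found in 135 of 289 progenitors (46.7%), and UMIs of both *Dll1* and *Notch1* in 48 (16.6%). After thinning, *Hes1* was found in 26.6% of progenitors and 1.44% of the enterocyte class.

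For several fate genes the progenitors lay between the goblet and stem classes. The classes are ranges of cells cut by marker rules, and no test sets one against another. They were filled in the order Paneth, goblet, tuft, enteroendocrine, enterocyte and stem, so none holds a cell that met an earlier rule. Progenitors were taken before all of them and kept cells with tuft, enteroendocrine or stem markers. The part of this order in the levels was not tested. *Atoh1* had 101 CPM in the goblet class, 54.4 CPM in progenitors, 35.6 CPM in the Paneth class (*Lyz1* at 0.5% or more) and 10.8 CPM or less in the tuft, enteroendocrine, stem, enterocyte and unassigned classes. *Notch1* ran the other way, with 58.0 CPM in the stem class, 29.6 CPM in progenitors and 8.11 CPM in the goblet class. *Sox4*, a factor of early lineage choice, was ordered alike, with 255, 96.4 and 26.2 CPM. *Galnt12* and *Foxa3* were highest in the goblet class, and *Rab15* had 77.5 CPM in progenitors and 63.0 CPM in the goblet class. The level of *Ccl9* was near even among 3 of them, at 77.8 CPM in progenitors, 82.1 CPM in the goblet class and 78.1 CPM in the Paneth class.

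**Figure D3:**
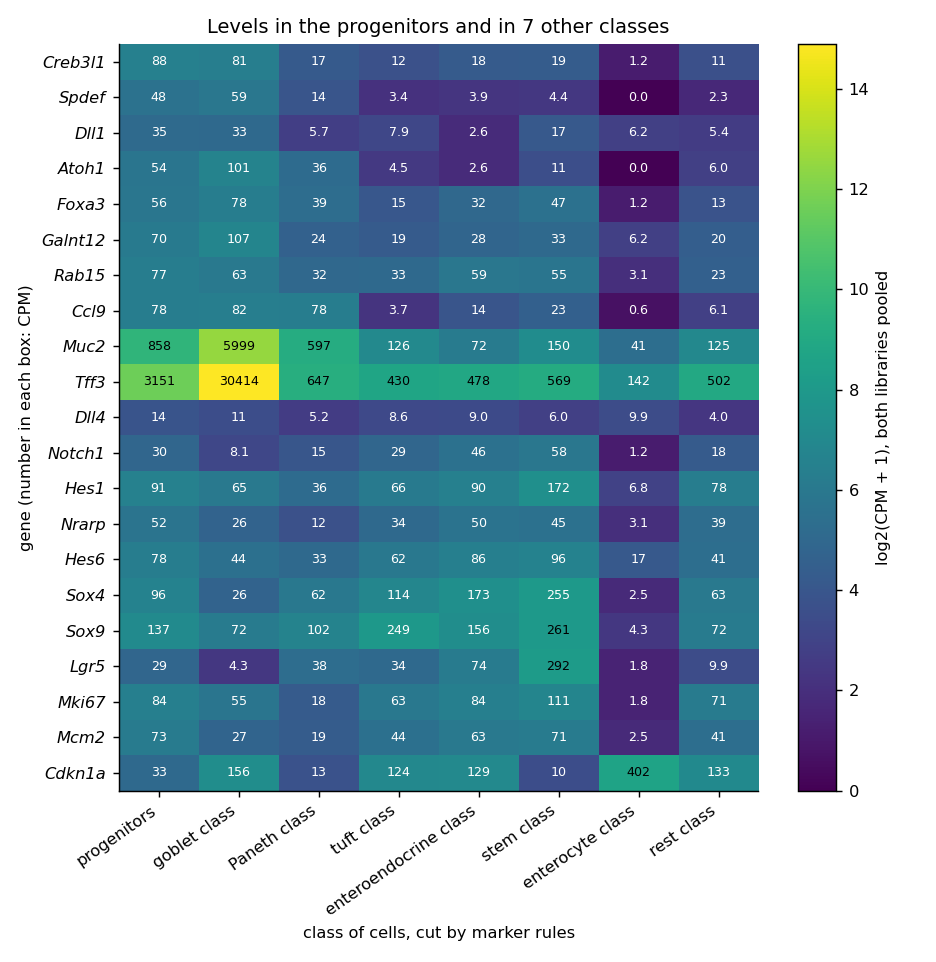
Levels of 21 genes (rows) in the progenitors and in 7 classes of other cells cut by marker rules (columns), both libraries pooled. The colour is log2(CPM + 1) and the number in each box is CPM; Creb3l1, Spdef and Dll1, with the mucus genes Muc2 and Tff3, were used by the rule, and among the other genes Atoh1, Foxa3 and Galnt12 are highest in the goblet class while Notch1 and Sox4 are highest in the stem class, with progenitors between; Lgr5 defined the stem class.

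Cells with more genes of the rule also had more of some secretory genes that the rule did not use. In cells within the mucus and *Lyz1* limits, pooled over both libraries, *Atoh1* had 22.8 CPM with 2 of the 8 genes found, 29.3 CPM with 3, 43.5 CPM with 4, 53.3 CPM with 5, 70.5 CPM with 6 and 66.5 CPM with 7 or 8. *Galnt12* had 35.9 CPM with 2 and 97.9 CPM with 7 or 8. *Mki67* had 61.1 and 95.5 CPM at these ends. *Lgr5* had 41.6 CPM with 2 genes, 54.9 CPM with 3, 28.1 CPM with 4, 26.9 CPM with 5, 34.4 CPM with 6 and 30.2 CPM with 7 or 8. In *Tipe0*-/- cells it had 61.0 CPM with 3, 25.6 CPM with 4 and 46.9 CPM with 6. *Hes1* differed by library, with 66.8 CPM in WT and 152 CPM in *Tipe0*-/- cells at 2 genes and 72.4 and 97.7 CPM at 7 or 8. The median depth also moved with the number found, from 16639 UMIs at 2 genes to 21549 UMIs at 7 or 8, and its part in these levels was not tested.

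**Figure D4:**
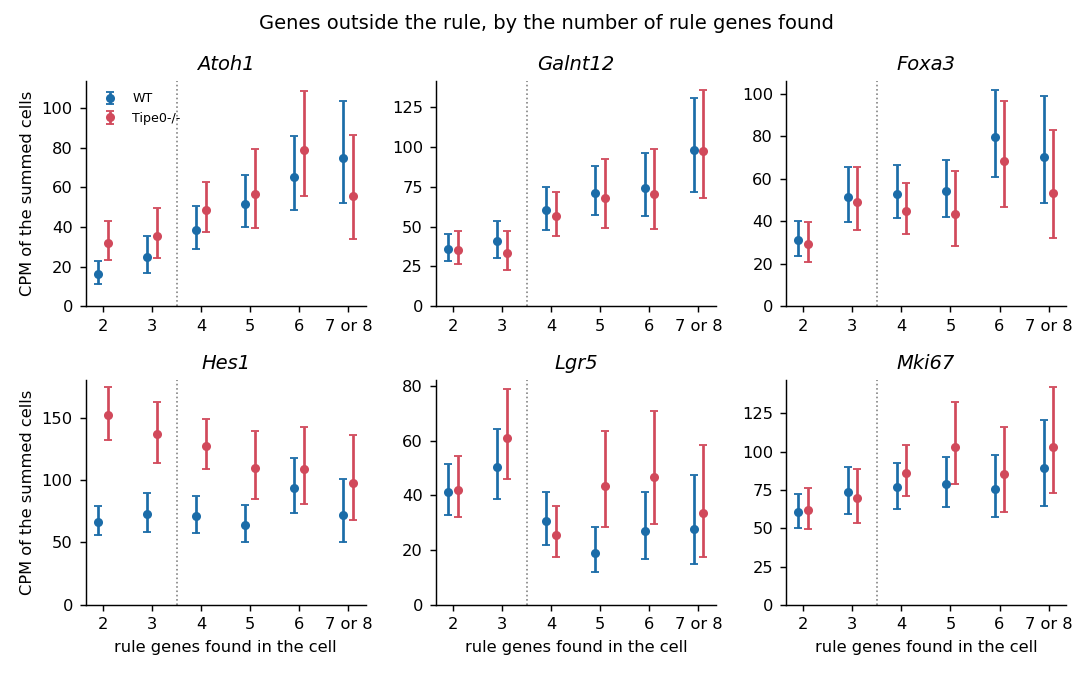
CPM (y axes) of 6 genes outside the rule in cells within the mucus and Lyz1 limits, by the number of the 8 rule genes found in the cell (x axes), for WT and Tipe0-/-. Points are sums over cells with exact 95% Poisson bars and the dotted line marks the limit of 4 genes; pooled Atoh1 goes from 22.8 CPM at 2 genes to 66.5 CPM at 7 or 8, while Hes1 starts at 66.8 CPM in WT and 152 CPM in Tipe0-/- cells.

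To ask how loss of TIPE0 related to the progenitors, the 2 libraries were compared, beginning with the targeted gene. *Tnfaip8* had 64 UMIs in WT progenitors, or 16.8 CPM (12.9 to 21.4), and 10 UMIs in *Tipe0*-/- progenitors, or 3.73 CPM (1.79 to 6.86). The log2 ratio was -2.11 (-3.30 to -1.20). The protocol reads transcript ends, and whether these lie inside the deleted part is not given in the sources used here. *Tnfaip8l1*, a paralog, had 21.3 and 17.5 CPM. Over the 8276 genes the median ratio, *Tipe0*-/- over WT, was 0.05 in progenitors and 0.16 in other cells. Of all genes, 55.9% lay above and 44.1% below 0. A ratio of at least 1 was found for 52 genes (0.628%) and of at most -1 for 94 (1.14%). Among the 3946 genes with at least 200 UMIs the numbers were 3 and 35.

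The 12 lowest genes by the naming rule included genes of mucosal defence and of antigen presentation. *Retnlb*, a goblet cell resistin-like protein, had 343 CPM (325 to 362) in WT and 35.5 CPM (28.7 to 43.3) in *Tipe0*-/- progenitors, a ratio of -3.27. After thinning, a UMI of it was found in 31.3% of WT and 4.67% of *Tipe0*-/- progenitors, and in 0.36% of the enterocyte class. The gasdermins *Gsdmc4* and *Gsdmc2* stood at -2.54 and -2.53, *Ifitm3* at -2.02 and *Ang4*, an antimicrobial ribonuclease, at -1.67. By the rule on thinned cells, which left 10 WT and 3 *Tipe0*-/- progenitors, the sign of *Gsdmc2* turned. All 12 MHC class I and II genes lay below 0 and 8 of them at or below -1 (background 1.14%), with a median of -1.07. *H2-Aa*, an MHC class II chain, had 386 CPM (366 to 406) and 137 CPM (123 to 152), and *Cd74*, its invariant chain, 1811 and 773 CPM. Lymphocyte genes were lower too, with *Ccl5*, a chemokine of T cells, at 207 and 10 UMIs (-3.80), *Gzma*, a granzyme, at 48 and 4 UMIs (-2.92), and *Cd74* a member of both lists, and their part in the MHC values was not tested. MHC genes took a median of 0.580% of the UMIs of a WT and 0.279% of a *Tipe0*-/- progenitor. *Plet1* had 94 UMIs in WT and 0 in *Tipe0*-/- progenitors, at least 22.0-fold lower with 3 UMIs over the *Tipe0*-/- group as the floor.

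Other cells of the *Tipe0*-/- library had low levels of these genes as well. In all other cells *Retnlb* stood at -3.80, *Ifitm3* at -1.67, *Ang4* at -1.52 and *H2-Aa* at -1.53, and the MHC median was -1.21. The ratios of *Gsdmc4* and *Gsdmc2* in other cells were -1.77 and -1.63, and the difference from progenitors was not tested. Defensin-rich cells also differed in number, at 18.7% of WT and 6.54% of *Tipe0*-/- progenitors, whereas cells with tuft markers made up 12.1% of both sets and cells with enteroendocrine markers 1.10% and 5.61%. Without the 79 cells past the marker limits, the MHC median in progenitors was -1.06. Library and genotype cannot be told apart.

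**Figure D5:**
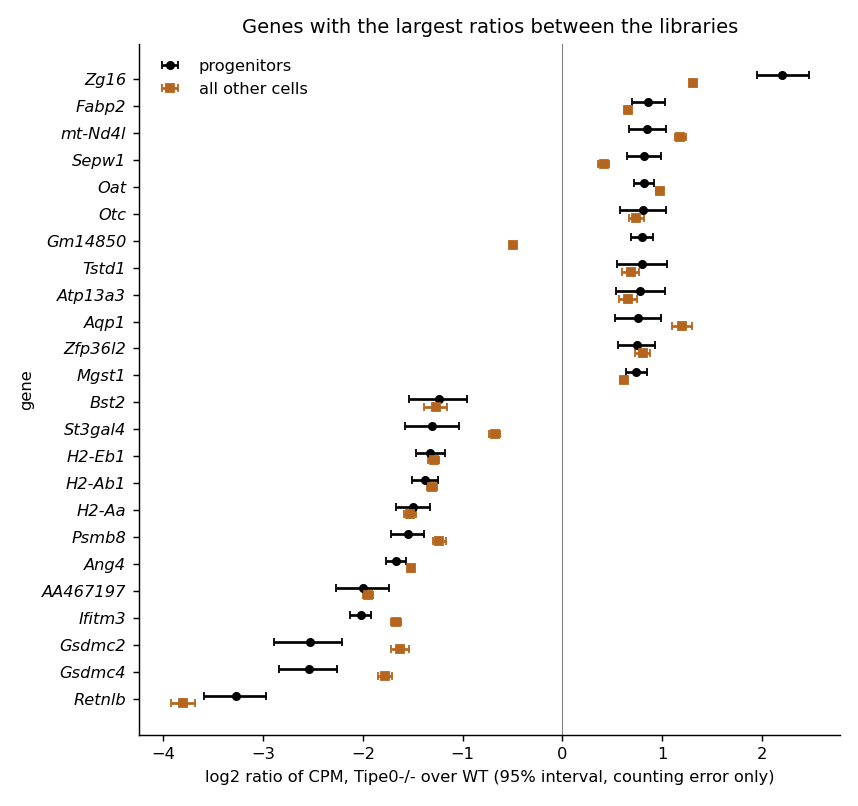
Log2 ratio of CPM, Tipe0-/- over WT (x axis), for the 12 highest and 12 lowest genes of the progenitors by the naming rule (y axis). Circles are progenitors, squares all other cells, and bars are exact 95% binomial intervals that cover counting error only; Retnlb stands at -3.27 in progenitors and -3.80 in other cells, and Gm14850, a defensin gene, stands at 0.80 in progenitors and -0.50 in other cells, but at -1.13 in progenitors without the defensin-rich cells.

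*Zg16*, a mucus gene limited by the rule, was the highest of the 12 named at 100 CPM or more, and the other 11 had ratios of 0.74 to 0.86. It had 43.0 and 199 CPM, a ratio of 2.20 in progenitors and 1.31 in other cells. *Fabp2*, an enterocyte fatty acid binding protein, had 145 and 264 CPM (0.86), *Oat*, ornithine aminotransferase, 395 and 694 CPM (0.81), and *Otc*, ornithine transcarbamylase, 72.9 and 128 CPM (0.81). In other cells these stood at 0.65, 0.98 and 0.74. *Aqp1*, a water channel, had 74.8 and 127 CPM, and *Mgst1*, a glutathione transferase, 353 and 590 CPM.

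The median ratio of secretory factor genes was close to that of all genes, with members on both sides, and Notch targets were mixed. *Atoh1* had a ratio of 0.11 (-0.21 to 0.42) in progenitors, 0.50 in the goblet class and 0.66 in all other cells. Among 11 secretory transcription factor genes, 6 lay above and 5 below 0, with a median of 0.06, close to the 0.05 of all genes. None passed a ratio of 1 in either direction, and they ran from *Bhlha15* at -0.84 (-1.71 to -0.07) to *Foxa2* at 0.73 (0.11 to 1.36). *Hes1* stood at 0.66 (0.42 to 0.90) and *Nrarp* at 0.64 (0.33 to 0.96) in progenitors, and at 1.10 and 0.79 in other cells. *Hes6* stood at 0.02 and *Olfm4*, a crypt base gene, at -0.39 in progenitors, and the median of the 4 target genes was 0.33, with 3 above and 1 below 0. *Sox9* was at 0.42 (0.22 to 0.61) and *Axin2*, a Wnt target, at 0.55 (0.32 to 0.77). *Insm1*, an enteroendocrine factor, had 5 UMIs in 4 WT and 25 UMIs in 9 *Tipe0*-/- progenitors, and the 6 *Tipe0*-/- cells with enteroendocrine markers held 17 of the 25.

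The ratios of *Spdef* and *Dll1* are a description only, since both genes chose the cells. Among progenitors *Spdef* was at -1.15, *Dll1* at 0.45 and *Creb3l1* at -0.53, and in all other cells *Spdef* was at -0.07 (-0.28 to 0.14), *Dll1* at 0.86 and *Creb3l1* at 0.12. With the rule on thinned cells, which left 10 WT and 3 *Tipe0*-/- progenitors, *Spdef* was at 0.41. In the goblet class, which the 8 genes did not select, *Spdef* was at -0.28 and *Dll1* at 0.77. When *Spdef* was not counted among the 8 genes the shares of progenitors were 4.14% in WT and 4.49% in *Tipe0*-/- cells, and when *Dll1* was not counted 4.88% and 4.04%.

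The median ratios of cell cycle genes of progenitors were near 0. They were 0.11 over 20 S phase genes, 16 of them above 0, and -0.16 over 20 mitosis genes, 15 of them below 0. In other cells the medians were 0.32 and 0.13. *Top2a* was at -0.15 (-0.27 to -0.03) in progenitors and 0.51 in the goblet class, and *Mcm2* at 0.06 and 1.01. Other members lay farther from 0 in progenitors, with *Mcm6* at 0.50 (0.31 to 0.69) and *Ube2c* at -0.43 (-0.60 to -0.27). Beside the 55.9% of all genes above 0, 12 of 16 PI3K and Akt components lay above and 4 below 0, with a median of 0.17. *Akt1*, a kinase of this pathway, had 134 and 123 CPM. Of 13 Wnt components 8 lay above and 5 below 0, with a median of 0.04. Goblet genes outside the rule had a median of -0.49 with 12 of 16 below 0, led by *Retnlb* and *Ang4*, beside 44.1% of all genes below 0. In other cells the median of these goblet genes was -0.02. *Agr2* was at -0.86 (-0.92 to -0.79) in progenitors and -0.27 in other cells. In the goblet class, too, its level given above was lower for *Tipe0*-/- than for WT cells.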

How the data were processed

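Single cells of ileal epithelium were measured in 1 WT and 1 *Tipe0*-/- library. The deposited matrices hold the authors' UMI counts per gene and cell, made with Cell Ranger against mm10 per the labels and methods, with no normalization and 27998 genes. No doublet caller was run here. The libraries held 38127808 and 23897126 UMIs. UMIs were summed over the chosen cells of each library and divided by the total to give CPM, which was compared as log2 ratios with 0.5 added. Genes with fewer than 50 UMIs in the progenitors were left out of counts of genes. With 1 library per genotype no test was run, and a gene was counted as higher or lower at a log2 ratio of at least 1 or at most -1, in both libraries where progenitors were set against other cells. For shares of cells with a UMI, each cell was thinned to 3000 UMIs. Other limits of the rule, gene minimums, scalings, weights of cells and sets of cells were tried.

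Genes named are those of the rule, the 20 highest and 8 lowest against other cells, the 12 highest and 12 lowest between libraries, the Notch and secretory factor genes with at least 20 UMIs, *Tnfaip8*, and up to 4 genes of each other list with the most UMIs. The highest needed 50 CPM in progenitors, the lowest 200 CPM in other cells and those between libraries 100 CPM where they were higher, with a UMI in 20% of progenitors for the first and last. The progenitors and the gene lists were chosen with earlier results of these data known. Sums were also simulated by Poisson draws, with 200 changed genes among 8276, each changed past a log2 ratio of 1. The direction was recovered for 200 and the intervals covered 96.2% of true ratios. The intervals assume such draws, which hold no spread between cells or mice, so this checks the calculation only and not the intervals on the measured sums. Python 3.11.15, numpy 2.4.6, scipy 1.17.1, pandas 2.3.3 and matplotlib 3.10.9 were used.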

Additional observations from a re-analysis of the deposited data

Results flagged for a closer look

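For 11 of the named genes the log2 ratio of CPM, *Tipe0*-/- over WT, had one sign in progenitors and the other in all other cells, with both counting intervals clear of 0. Other named genes differed in sign with an interval that held 0. With 1 library per genotype the difference was not tested for any of them. *Apoa1* stood at -0.60 in progenitors and 0.05 in other cells, and *Clec2h*, a lectin of enterocytes, at -0.36 and 0.18. *Spink1* stood at 0.29 and -0.10. The defensin genes *Defa21* and *Gm14850* stood at 0.64 and 0.80 in progenitors and at -0.37 and -0.50 in other cells. Once the defensin-rich cells were left out, *Gm14850* was at -1.13 in progenitors. Single cells carried *Defa21*, with 4580 of 5094 UMIs in 1 *Tipe0*-/- cell and 3471 of 4634 in 1 WT cell. Of 16 Paneth genes other than *Lyz1*, 4 lay above and 12 below 0 in progenitors, with a median of -0.30. The tuft cell genes *Dclk1* and *Rgs13* stood at 0.45 and 0.61 against -0.96 and -0.70, and *Dclk1* was found in 23 WT and 12 *Tipe0*-/- progenitors. Most of the tuft list went the other way, with 3 of 9 genes above and 6 below 0 in progenitors and a median of -0.31. *Chgb*, an enteroendocrine granule gene, was at 0.94 against -0.69, with UMIs in 5 WT and 7 *Tipe0*-/- progenitors. It was the 1 of 5 enteroendocrine genes past the minimum that lay above 0, with 4 below 0 and a median of -0.05. *Rap1gap*, a gene of the rule, was at -0.37 against 0.42. *Top2a* was at -0.15 against 0.23, and *Krt8*, an epithelial keratin, at 0.12 against -0.06.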

How the results depend on the processing

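As reported, 29 genes were higher and 160 lower in progenitors than in other cells, and 52 were higher and 94 lower in *Tipe0*-/- progenitors. The share of progenitors depended on the limits, from 3.20% of WT and 2.64% of *Tipe0*-/- cells at a mucus limit of 0.5% to 7.61% and 8.82% at 2%, and was 7.50% and 7.48% with 3 or more genes and 3.47% and 2.74% with 5 or more. The difference between libraries ran from -0.959 to 1.21 percentage points over the alternatives tried and so changed sign. Of other summary values under an alternative, those that moved are given here. By the rule on thinned cells (10 and 3 cells, 456 genes) the counts were 6, 15, 9 and 28. With 5 or more genes of the rule, the enterocyte median against other cells was -2.56 and the Notch target median between libraries 0.51. Without the 5% of cells with the most UMIs, 44 genes were higher, the S phase median was 0.75, and the medians between libraries were 0.19 for secretory factors and 0.72 for Notch targets. With the mean of CPM per cell, 67 genes were higher in progenitors and 83 in *Tipe0*-/- progenitors, with medians of 0.81 for mitosis and -3.23 for enterocyte genes. At a minimum of 20 UMIs (9966 genes) the counts were 53, 241, 168 and 177, the enterocyte median -3.38 and the secretory factor median between libraries -0.05, a change of sign from 0.06. At 200 UMIs (3946 genes) they were 8, 60, 3 and 35, with -2.27 for enterocyte genes and 0.64 for Notch targets. With totals that left out mitochondrial and the 20 most abundant genes, 6 genes were higher, and the medians were 0.35 for secretory factors, 0.61 for S phase, 0.47 for mitosis and -2.96 for enterocyte genes. With scaling by the median ratio, 5 genes were higher and 256 lower, with medians of 0.30, 0.56, 0.42 and -3.02. Against other cells of at least 10000 UMIs, 104 were lower and the enterocyte median was -2.23. Chosen after seeing the data, leaving out defensin-rich progenitors (7972 genes) gave 47 higher genes, 0.94 for S phase, 0.78 for mitosis, -2.50 for enterocyte genes and 0.61 for Notch targets, and leaving out the 79 past the limits on defensin, tuft and enteroendocrine markers gave 45, 0.93, 0.77, -2.39 and 0.52, with 0.19 for secretory factors between libraries. Between libraries, the sign turned by the rule on thinned cells for *Gm14850* (-0.40), *Mgst1* (-0.32), *Gsdmc2* (0.38), *Atoh1* (-0.30) and *Spdef* (0.41). It also turned for *Gm14850* without defensin-rich progenitors (-1.13) and without the 79 (-1.15). The causes were not tested. The MHC median between libraries was -1.07 as reported and -1.06 without the 79. No paired analysis was possible because each genotype has 1 library. Depth limits which cells the rule finds, and no value can be set against the spread between mice.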
